A study of Mus musculus with 32 samples.

Results

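The genes described here are 10 genes of the endoplasmic reticulum (ER) of the cell and of its unfolded protein response (UPR), followed through 32 RNA sequencing libraries of primary mouse chondrocytes, the cells that build cartilage. They were chosen by name, with earlier results of these data known, and each symbol was matched to 1 Ensembl identifier, so they are 10 of the 41388 genes counted in every library. By role they are the chaperones Hspa5 (BiP) and Hsp90b1 (GRP94), the BiP cofactors Dnajb9, Dnajc3 and Sdf2l1, the disulphide isomerase Pdia4, the degradation factor Herpud1, the transcription factors Xbp1 and Creb3l2, and Serpinh1 (HSP47), the chaperone of procollagen. All 10 passed the filter on low counts in every comparison below.

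Cells came from the sterna of C57BL/6 mice and were not passaged. The study's methods name both sterna and ribs of newborn pups, taken without regard to sex. There are 16 groups of 2 libraries. Wild-type cells were left untreated, or given FX11, an inhibitor of lactate dehydrogenase A, at 40 µM, IL-1β at 10 ng/mL, or both, for 24 h and without virus. Cells of 3 lines homozygous for a floxed allele (Nfkbiz f/f, Nampt f/f or Ldha f/f) were first infected for 24 h with adenovirus for eGFP (GFP) or for Cre with eGFP (Cre), and were then cultured for 24 h with or without IL-1β at the same dose. Ldha encodes lactate dehydrogenase A, Nampt the rate-limiting enzyme of NAD salvage, and Nfkbiz the nuclear regulator IκB-ζ. The control for Cre virus was GFP virus and no wild-type library received Cre, so an effect of the deletion and an effect of Cre itself cannot be told apart within a line. The labels name no separate cultures or animals for the 2 libraries of a group, so the p-values below measure only the spread between these samples, which may be technical.

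Proteins that are to be secreted, such as the collagens and proteoglycans of cartilage, are folded in the ER by BiP, GRP94, disulphide isomerases and their partners. When unfolded proteins accumulate, the sensors IRE1α (Ern1), ATF6 and PERK (Eif2ak3) are activated: IRE1α splices Xbp1 mRNA, ATF6 is cut in the Golgi to a free transcription factor, and PERK phosphorylates eIF2α, which slows translation and favours synthesis of ATF4 and then CHOP (Ddit3). XBP1 and ATF6 drive chaperone and degradation genes through ER stress response elements in their promoters. Chondrocytes carry a heavy secretory load, and Creb3l2 (BBF2H7), a membrane-bound relative of ATF6, is known for driving secretory pathway genes in cartilage. The files hold total counts per gene, so spliced and unspliced Xbp1 were not separated.

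The promoters are shown because the ER stress response element is the sequence through which several of these genes are known to answer unfolded protein. The window ran from 250 bases before to 50 bases after each RefSeq transcription start (GRCm38.p6), and both strands were searched. The element ERSE was searched as CCAAT, any 9 bases, then CCACG, and ERSE-II as ATTGG, any 1 base, then CCACG. ERSE lay in 39 of 32851 promoters of this length (0.119%) and in those of 3 of the 10 genes, Hspa5, Hsp90b1 (2 matches) and Dnajc3. ERSE-II lay in 12 promoters (0.0365%), among them that of Herpud1. Each match is given on the strand that reads as the element, with 5 flanking bases on either side and the element in capitals.
Hspa5 at chr2:34772020-34772048 on the + strand, whose first element base lies 65 bases before the start: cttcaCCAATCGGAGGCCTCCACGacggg
Hsp90b1 at chr10:86705633-86705661 on the − strand, 212 bases before the start: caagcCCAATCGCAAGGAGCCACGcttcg
Hsp90b1 at chr10:86705528-86705556 on the + strand, opposite to the gene, 107 bases before the start: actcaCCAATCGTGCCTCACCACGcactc
Dnajc3 at chr14:118937822-118937850 on the + strand, 105 bases before the start: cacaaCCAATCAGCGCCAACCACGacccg
Herpud1 at chr8:94386372-94386392 on the + strand, 52 bases before the start: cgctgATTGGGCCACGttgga
The 5 letters CCACG, the part of the element that XBP1 and ATF6 are known to contact, occur in every ERSE and ERSE-II match by construction. On their own they lay in 10765 promoters (32.8%) and in those of 8 of the 10 genes, all but Xbp1 and Creb3l2.

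For Herpud1 and Sdf2l1, which moved in opposite directions with IL-1β, the 250 bases before the RefSeq start follow, read along the gene's strand. In that of Herpud1, at chr8:94386179-94386428, capitals mark the ERSE-II match, and in that of Sdf2l1, at chr16:17132384-17132633 on the − strand, capitals mark its 3 matches to CCACG, all on the other strand and so written CGTGG. A match in these letters is a description of the sequence and not of any binding.
Herpud1: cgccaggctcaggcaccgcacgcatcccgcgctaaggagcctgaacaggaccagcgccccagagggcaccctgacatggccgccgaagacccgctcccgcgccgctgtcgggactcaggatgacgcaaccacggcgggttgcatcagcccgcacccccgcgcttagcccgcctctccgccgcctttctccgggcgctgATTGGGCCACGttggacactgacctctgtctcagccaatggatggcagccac
Sdf2l1: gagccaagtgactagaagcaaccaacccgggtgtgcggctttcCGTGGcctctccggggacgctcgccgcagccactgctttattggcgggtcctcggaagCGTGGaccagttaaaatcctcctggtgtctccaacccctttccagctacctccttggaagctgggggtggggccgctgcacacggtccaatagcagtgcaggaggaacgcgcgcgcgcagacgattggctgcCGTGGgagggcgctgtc

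In the coordinates of the deposited files (GRCm38), Hspa5 (ENSMUSG00000026864) lies at chr2:34771970-34776531, Hsp90b1 (ENSMUSG00000020048) at chr10:86690209-86705509 and Xbp1 (ENSMUSG00000020484) at chr11:5520659-5525893. Dnajb9 (ENSMUSG00000014905) lies at chr12:44205897-44210068, Dnajc3 (ENSMUSG00000022136) at chr14:118937932-118981702 and Sdf2l1 (ENSMUSG00000022769) at chr16:17130138-17132383. Pdia4 (ENSMUSG00000025823) lies at chr6:47796142-47813512, Herpud1 (ENSMUSG00000031770) at chr8:94386438-94395377, Creb3l2 (ENSMUSG00000038648) at chr6:37327255-37442146 and Serpinh1 (ENSMUSG00000070436) at chr7:99345375-99353230. The file's start of Hspa5 lies upstream of the RefSeq start, so its element falls after the file's start. Hsp90b1 overlaps 1810014B01Rik on the opposite strand and Gm15344 and Gm25745 on its own, Herpud1 overlaps Gm15890 on the opposite strand, and Pdia4 overlaps Mir704. Whether counting used the strand is not stated, so reads of these genes and of their opposite-strand partners cannot be told apart.

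Library totals ran from 15830658 to 39959888 counts, with a median of 25363482, and the 2 libraries of every group differed by more than sampling noise. Values below are CPM, the counts of a gene scaled to a fixed library total and corrected by edgeR's TMM factor. The deleted genes followed their labels: Ldha went from 868 and 917 CPM after GFP to 111 and 118 CPM after Cre in Ldha f/f, Nampt from 54.5 and 59.5 to 6.71 and 6.85 CPM in Nampt f/f, and Nfkbiz with IL-1β from 229 and 235 to 29.4 and 32.3 CPM in Nfkbiz f/f. Without IL-1β, Nfkbiz there went only from 16.1 and 16.9 to 9.64 and 8.27 CPM. With IL-1β, Nfkbiz was also lower after Cre where it is not floxed. It went from 177 and 164 to 69.6 and 66.8 CPM in Ldha f/f, and from 202 and 203 to 67.6 and 60.7 CPM in Nampt f/f. The fall of Nfkbiz with IL-1β is therefore not a check of its deletion alone. Mmp3, an IL-1β-induced protease that checks the treatment labels, was at 3.06 CPM or less in every floxed library without IL-1β and at 149 CPM or more in every one with it. In wild type, 2 libraries of set 2 (a set is a numbering style of the titles) ran against their labels: Mmp3 was at 0.783 CPM in the library labelled IL-1β, beside 0.808 CPM in its untreated partner, and the library labelled FX11 alone had 2014 CPM. They keep their labels here. The 7 chondrocyte markers were counted in every library, and their sum was 62500 to 83190 CPM in untreated control libraries. The 6 markers of fibroblasts and perichondrium summed to 711 to 1128 CPM in Nfkbiz f/f, 2235 to 5581 CPM in Ldha f/f and Nampt f/f, and 3734 to 9521 CPM in wild type, so the lines also differed in this. Markers of endothelium summed to at most 26.2 CPM, of skeletal muscle to at most 163 CPM, of osteoblasts to at most 61.6 CPM, of erythroid cells to at most 43.1 CPM and of leukocytes to at most 225 CPM, each highest in wild type but for endothelium.

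Levels between genes were compared per kilobase of exon over the 8 untreated control libraries (wild type, and the 3 lines after GFP). Serpinh1 stood far above the other 9 genes, with a median of 1614 CPM per kilobase and a range of 1509 to 2179. Hspa5 came next at 282 (254 to 313), then Pdia4 at 118 (108 to 219). Herpud1 at 75.0 (66.6 to 82.5) and Hsp90b1 at 74.1 (51.3 to 81.7) overlapped and could not be ordered. Creb3l2 had 42.0 CPM per kilobase (36.6 to 65.1) and Xbp1 28.2 (23.6 to 36.2), ranges that did not meet, although that of Creb3l2 overlapped Hsp90b1 and that of Xbp1 overlapped Dnajb9. Dnajb9 at 22.2 (18.2 to 26.6) and Dnajc3 at 15.5 (12.0 to 18.0) each overlapped Sdf2l1 at 17.0 (14.6 to 25.6) but not each other.

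**Figure D1:**
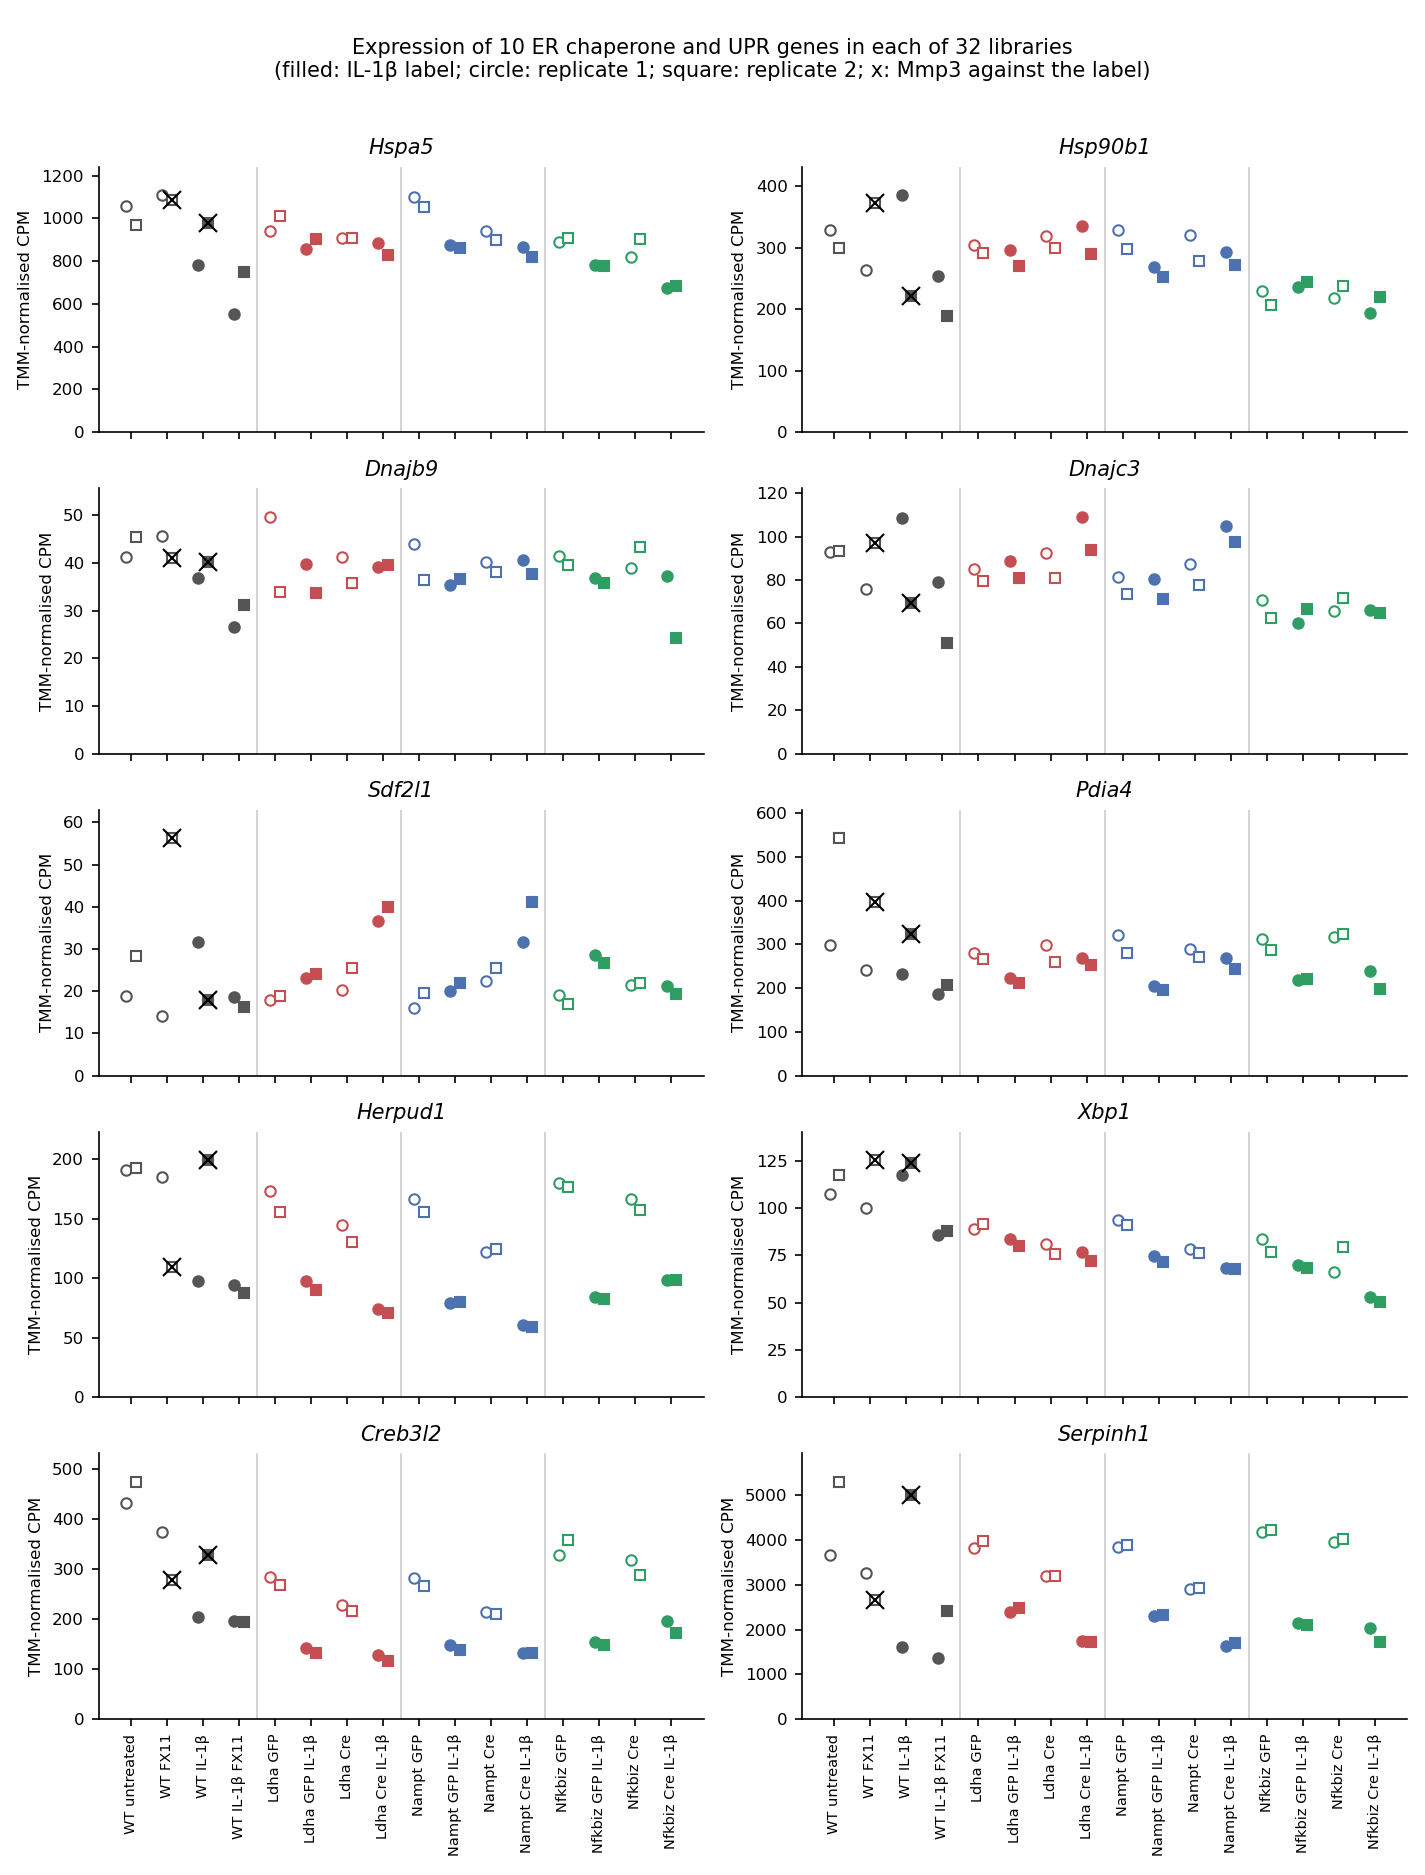
TMM-normalised CPM (vertical axis, linear from 0) of the 10 genes in the 16 groups (horizontal axis), with 1 point per library, circles for replicate 1 and squares for replicate 2, filled where the label has IL-1β. Herpud1, Creb3l2 and Serpinh1 sit lower in every floxed group with IL-1β, Sdf2l1 is highest among floxed cells in Ldha f/f and Nampt f/f after Cre with IL-1β (31.6 to 41.2 CPM), and the crosses mark both wild-type libraries whose Mmp3 runs against the label.

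The first question was whether IL-1β shifts these genes in cells given GFP virus. Herpud1, Creb3l2, Serpinh1 and Pdia4 were lower with IL-1β in all 3 lines, by 1.26-fold to 2.25-fold, and Sdf2l1 was the gene that moved the other way, past the test in Nfkbiz f/f. A gene is called at a Benjamini-Hochberg adjusted p of 0.05 or less in edgeR's quasi-likelihood test over all genes. In Ldha f/f 4 of the 10 genes were called lower and 0 higher, where 13.3% of all genes tested were called lower and 14.5% higher. In Nampt f/f 7 were called lower and 0 higher, against 17.3% and 17.7%, and in Nfkbiz f/f 4 lower and 1 higher, against 11.7% and 15.2%. The median log2 fold change of the 10 was −0.17, −0.30 and −0.19 in the 3 lines in that order, where the median over all genes was within 0.01 of 0.

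Herpud1 encodes a membrane protein of ER-associated degradation, which returns misfolded proteins to the cytosol for the proteasome. Its level in Ldha f/f went from 174 and 155 CPM to 98.1 and 90.5 CPM when IL-1β was given (log2 −0.80, SE 0.08, adjusted p = 5.85e-05). It went in Nampt f/f from 166 and 155 CPM to 79.2 and 80.0 CPM (−0.99, SE 0.06, adjusted p = 5.7e-07). It went in Nfkbiz f/f from 180 and 176 CPM to 84.2 and 82.3 CPM (−1.08, SE 0.09, adjusted p = 1.69e-06). The groups did not overlap in any line, and the 6 libraries with IL-1β lay between 79.2 and 98.1 CPM.

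Creb3l2, the membrane-bound transcription factor of secretory genes, fell by about as much. It went from 284 and 267 CPM to 142 and 133 CPM in Ldha f/f (log2 −1.01, SE 0.08, adjusted p = 9.38e-06). It went from 281 and 267 CPM to 148 and 138 CPM in Nampt f/f (−0.92, SE 0.06, adjusted p = 7.63e-07), and from 327 and 358 CPM to 154 and 148 CPM in Nfkbiz f/f (−1.17, SE 0.11, adjusted p = 4.65e-06). No library with IL-1β reached the lowest library without it. Xbp1, the transcription factor of the IRE1α arm, moved less. It was called lower in Nampt f/f alone, from 93.9 and 91.0 CPM to 74.5 and 71.4 CPM (−0.32, SE 0.06, adjusted p = 0.00245), and gave −0.14 (SE 0.07, adjusted p = 0.166) in Ldha f/f and −0.19 (SE 0.11, adjusted p = 0.204) in Nfkbiz f/f. Whether the lines differ in their IL-1β effect was not tested for this or any other gene.

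Serpinh1, which escorts procollagen out of the ER, went from 3822 and 3971 CPM to 2389 and 2486 CPM in Ldha f/f (log2 −0.68, SE 0.07, adjusted p = 4.88e-05). Nampt f/f cells went from 3849 and 3889 CPM to 2306 and 2327 CPM (−0.72, SE 0.05, adjusted p = 8.65e-07), and Nfkbiz f/f cells from 4186 and 4227 CPM to 2156 and 2099 CPM (−0.97, SE 0.12, adjusted p = 4.18e-05). The 7 chondrocyte markers moved with it: their sum was 62500 to 80280 CPM without IL-1β and 23670 to 28220 CPM with it over the same 12 libraries. In bulk RNA fewer chondrocytes and less RNA of these genes per chondrocyte cannot be told apart, and the part of either in the fall of Serpinh1 and Creb3l2 was not tested.

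Pdia4, which forms and shuffles disulphide bonds in client proteins, was lower in all 3 lines. It went from 280 and 268 CPM to 224 and 212 CPM in Ldha f/f (log2 −0.34, SE 0.08, adjusted p = 0.0134), a call lost without replicate 1 of the GFP group (adjusted p = 0.059) or replicate 2 of the GFP group with IL-1β (0.0845). Nampt f/f cells went from 322 and 279 CPM to 204 and 196 CPM (−0.56, SE 0.08, adjusted p = 0.000257). Nfkbiz f/f cells went from 313 and 288 CPM to 218 and 220 CPM (−0.44, SE 0.11, adjusted p = 0.00813), a call lost without replicate 1 of the GFP group (0.0817) and without replicate 1 (0.0791) or 2 (0.07) of the GFP group with IL-1β. The fall in Nampt f/f held without any 1 of its 8 libraries.

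The chaperones Hspa5 and Hsp90b1 had smaller fold changes than Serpinh1 and Pdia4 in each line. Hspa5, the BiP chaperone that also holds the sensors inactive, went from 941 and 1013 CPM to 857 and 904 CPM in Ldha f/f (log2 −0.15, SE 0.08, adjusted p = 0.174). It went from 1101 and 1051 CPM to 874 and 860 CPM in Nampt f/f, where it was called (−0.29, SE 0.06, adjusted p = 0.00271), and from 891 and 909 CPM to 781 and 778 CPM in Nfkbiz f/f (−0.19, SE 0.10, adjusted p = 0.177). All 6 libraries with IL-1β lay below the 2 without it of the same line. Hsp90b1, the ER member of the HSP90 family, was called in Nampt f/f alone, from 329 and 299 CPM to 269 and 252 CPM (−0.24, SE 0.08, adjusted p = 0.0353). That call was lost without replicate 1 of the GFP group (adjusted p = 0.194) and without replicate 1 (0.0659) or 2 (0.176) of the GFP group with IL-1β. Hsp90b1 in Nfkbiz f/f was at 230 and 207 CPM without and 236 and 244 CPM with IL-1β (0.15, SE 0.10, adjusted p = 0.314).

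Of the BiP cofactors, Sdf2l1, which works in a complex with BiP and its J-domain partners, went from 19.1 and 17.0 CPM to 28.6 and 26.8 CPM in Nfkbiz f/f (log2 0.63, SE 0.12, adjusted p = 0.00145). Ldha f/f cells went from 17.9 and 18.9 CPM to 23.0 and 24.2 CPM and missed the threshold by little (0.35, SE 0.12, adjusted p = 0.0500048). With the library set as a block, which pairs these libraries, it was called (0.36, adjusted p = 0.00522), as it was without either library of the Cre group without IL-1β (0.0244 and 0.0242). Nampt f/f cells went from 16.1 and 19.7 CPM to 20.0 and 22.0 CPM (0.26, SE 0.15, adjusted p = 0.199, and 0.0227 with the block). No library with IL-1β lay below one without it in the same line. Dnajb9 (ERdj4), which recruits BiP to the sensor IRE1α, was at 34.0 to 49.7 CPM without and 33.6 to 39.8 CPM with IL-1β, with log2 fold changes of −0.19 to −0.14 and none called. Without replicate 2 of the GFP group in Ldha f/f, which had 34.0 CPM beside 49.7 CPM in replicate 1, its fold change was −0.43 (adjusted p = 0.0306). Dnajc3 (p58IPK), a J-domain partner of BiP, was at 62.4 to 85.2 CPM without and 60.4 to 89.0 CPM with IL-1β, with fold changes of −0.05 to 0.04 and none called.

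**Figure D2:**
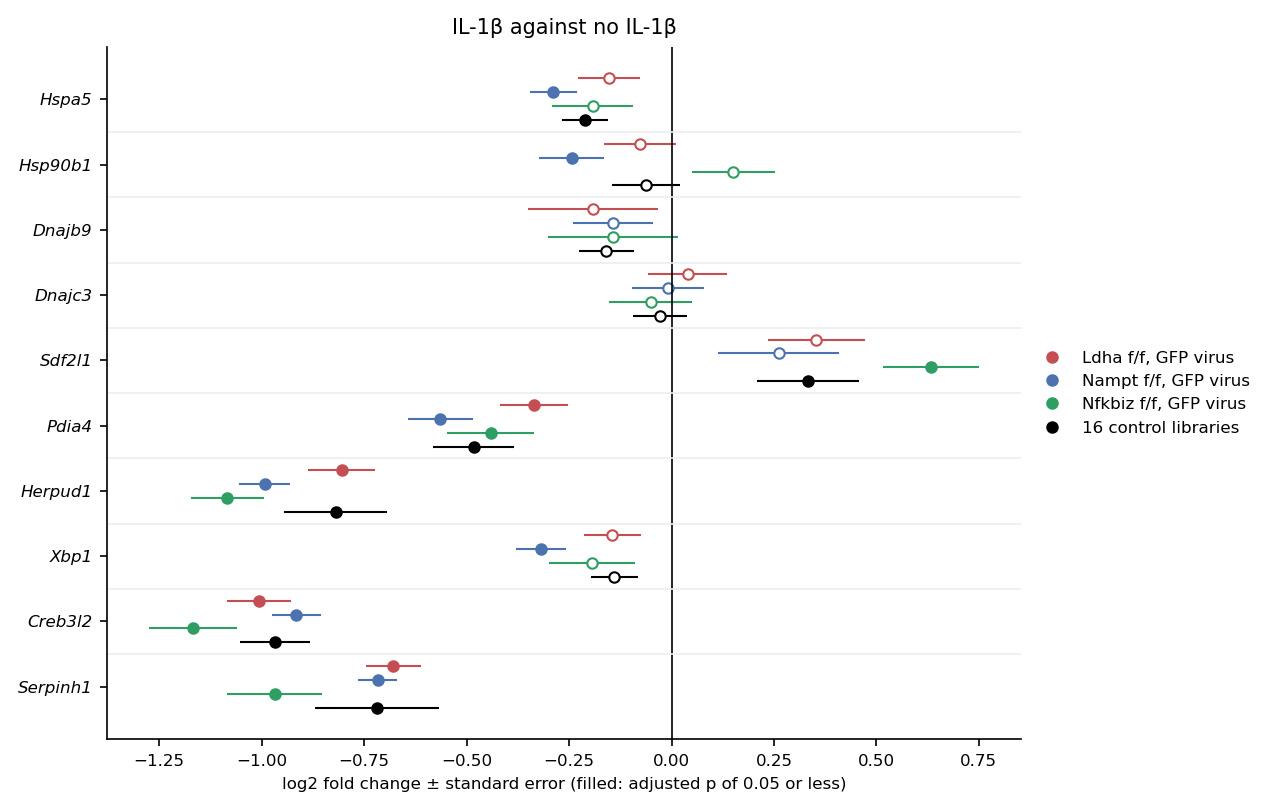
Log2 fold change with IL-1β against without (horizontal axis) of the 10 genes (vertical axis) in the 3 floxed lines after GFP virus and over 16 control libraries, with bars for 1 standard error and filled points for an adjusted p of 0.05 or less. Herpud1, Creb3l2 and Serpinh1 lie between −1.17 and −0.68, Pdia4 between −0.56 and −0.34, and Sdf2l1 above 0 throughout.

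Over 16 control libraries, 8 with and 8 without IL-1β, with line and library set as covariates, 5 of the 10 genes were called lower and 1 higher, where 19.9% of genes were called lower and 19.1% higher. Creb3l2 ranged from 267 to 474 CPM without IL-1β (median 306) and from 133 to 328 CPM with it (median 148), and its log2 fold change was −0.97 (SE 0.09, adjusted p = 1.09e-05). Herpud1 ranged from 155 to 192 CPM and from 79.2 to 199 CPM (−0.82, SE 0.13, adjusted p = 0.000299), and Serpinh1 from 3675 to 5306 CPM and from 1616 to 5010 CPM (−0.72, SE 0.15, adjusted p = 0.00244). In each of these 3 genes 7 of the 8 libraries with IL-1β lay below every untreated library, and the exception was replicate 2 of wild type with IL-1β. Pdia4 (−0.48, SE 0.10, adjusted p = 0.00192) and Hspa5 (−0.21, SE 0.06, adjusted p = 0.00882) were also lower, and Sdf2l1 was higher (0.33, SE 0.12, adjusted p = 0.0485).

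Without replicate 2 of wild type with IL-1β, the library whose Mmp3 runs against its label, 8 of the 10 genes were called, with Xbp1 (log2 −0.17, adjusted p = 0.0164) and Dnajb9 (−0.18, adjusted p = 0.0373) added, and Sdf2l1 gave 0.44 (adjusted p = 0.000262). Without any wild-type library the same 8 genes were called, with Herpud1 at −0.96 and Creb3l2 at −1.03. The share of all genes called in these fits is not given here, so the count of 8 is no result about the 10 genes as a group. The call of Sdf2l1 over all 16 was the least stable, kept in 3 of 16 fits that each left out 1 library (replicate 2 of untreated wild type, of wild type with IL-1β or of Nampt f/f with GFP), and its adjusted p reached 0.116 without replicate 1 of wild type with IL-1β. Within set 1, over 3 pairs of libraries, the mean log2 ratio was −0.95 ± 0.12 (SD) for Herpud1, −1.0 ± 0.08 for Creb3l2 and −0.87 ± 0.28 for Serpinh1. Within set 2, over 5 pairs, those of Nfkbiz f/f by number alone, it was −0.78 ± 0.48, −0.97 ± 0.27 and −0.69 ± 0.37. Sdf2l1 gave 0.47 ± 0.24 within set 1 and 0.22 ± 0.53 within set 2. The set 2 pairs include that of wild type, whose IL-1β library has Mmp3 against its label. The log2 ratio of that pair was 0.05 for Herpud1, −0.53 for Creb3l2, −0.08 for Serpinh1 and −0.66 for Sdf2l1.

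Genes around the 10 were counted in 9 lists of related function. The shares of all genes called with IL-1β in each line are those given above beside the 10 genes. The list of cartilage matrix proteins, which pass through this machinery, fell as a whole with IL-1β: 11 of 11 were called lower in each line, with medians of −1.50, −1.47 and −1.38 in the lines, given in the order Ldha f/f, Nampt f/f, Nfkbiz f/f throughout. Matn3, a matrilin, gave −2.52, −2.86 and −2.58. Of 11 genes of the PERK, ATF4 and CHOP arm, 9 were called lower and 0 higher in each line, with medians of −0.52, −0.48 and −0.55. Ddit3, which encodes CHOP, gave −1.06, −1.22 and −1.31. In ER-associated degradation 6, 7 and 3 of 17 genes were lower and 0 higher, with Edem1, which extracts misfolded glycoproteins, at −0.87, −0.98 and −1.16. Of 20 other ER folding genes 4, 11 and 2 were lower and 1, 0 and 2 higher. Their medians (−0.11, −0.25 and −0.02) lay nearer to 0 than those of the matrix and PERK lists. Of 8 sensors and membrane-bound factors 1, 3 and 1 were lower and 0, 0 and 1 higher, with Eif2ak3, the sensor PERK, at −0.38, −0.41 and −0.44.

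Translocon and signal peptide genes had 4, 9 and 1 of 13 lower and 0 higher. ER-to-Golgi transport had 6, 8 and 7 of 17 lower and 0 higher, with Sec23a, a COPII coat subunit, at −0.58, −0.63 and −0.55. Collagen modification had 5, 8 and 5 of 12 lower and 2, 1 and 2 higher, with the prolyl hydroxylase subunit P4ha2 at 0.69, 0.37 and 0.69 and P3h2 at −1.13, −1.18 and −1.03. Of 12 cytosolic and mitochondrial heat shock genes 12, 12 and 8 were called higher and 0 lower, with medians of 0.89, 1.05 and 0.58. These cells all carried GFP virus. In wild type without virus the heat shock median was 0.006 with IL-1β and −0.04 with IL-1β and FX11 against untreated. The cartilage matrix median there was −0.87 and −1.72. The IL-1β group of wild type holds 1 library whose Mmp3 runs against its label.

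Wild-type cells without virus addressed whether FX11 shifts the genes, with and without IL-1β. Across all genes edgeR's quasi-likelihood test called 0.0% in each of the 4 wild-type comparisons, and 0 of the 10 genes. At an unadjusted p of 0.05 or less it found 153 genes for IL-1β, 68 for FX11, 102 for FX11 added to IL-1β and 860 for both agents against untreated, and DESeq2 called 6, 2, 1 and 153 genes. Of the 10 genes 1, 0, 1 and 5 had such an unadjusted p. The 2 libraries whose Mmp3 runs against their labels enter the first 3 comparisons, so the fold changes of those 3 are averages over unlike libraries. Without these 2 libraries 1, 0, 0 and 1 genes were called, none of them among the 10, and 1304, 63, 117 and 1387 had an unadjusted p of 0.05 or less. IL-1β then gave −0.97 for Herpud1 (SE 0.22, adjusted p = 0.315, against −0.36 with them), −1.14 for Creb3l2 (SE 0.25, 0.301, against −0.76) and −1.47 for Serpinh1 (SE 0.54, 0.556, against −0.43), and the other 7 genes lay between −0.85 and 0.43, with Hsp90b1 turning from −0.04 to 0.30 and Dnajc3 from −0.06 to 0.23. FX11 alone then gave −0.81 to 0.13 over the 10 genes, where Sdf2l1 turned from 0.60 to −0.73 (SE 0.35), Hsp90b1 from 0.03 to −0.26 (SE 0.29) and Xbp1 from 0.02 to −0.18 (SE 0.21), each at an adjusted p of 1.00.

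In set 1, where the labels and Mmp3 go together, Herpud1 was at 191 CPM untreated, 185 with FX11, 97.6 with IL-1β and 94.1 with both. Creb3l2 was at 431, 374, 205 and 196 CPM in the same order, and Serpinh1 at 3675, 3272, 1616 and 1369 CPM. In these 3 genes the fall with IL-1β was large and the change when FX11 was added was small. Hspa5 was at 1058, 1109, 782 and 554 CPM, Sdf2l1 at 18.8, 14.2, 31.6 and 18.5 CPM, Hsp90b1 at 329, 264, 386 and 255 CPM, and Dnajc3 at 92.8, 75.8, 109 and 79.1 CPM. Xbp1 was at 108, 99.9, 117 and 85.6 CPM, Dnajb9 at 41.2, 45.7, 36.8 and 26.7 CPM, and Pdia4 at 299, 241, 232 and 188 CPM. All 10 genes were lower with both agents than with IL-1β alone, in 1 library each and so with no test. The share of all genes lower in this pair was not counted, so this is no result about the 10 as a group. In set 2 Herpud1 was at 192 CPM untreated, 109 with the FX11 label, 199 with the IL-1β label and 88.1 with both, and Sdf2l1 at 28.3, 56.2, 17.9 and 16.4 CPM. In that set the library labelled FX11 and not the one labelled IL-1β was low in Herpud1 and high in Sdf2l1, and Serpinh1 followed Herpud1 at 5306, 2673, 5010 and 2420 CPM. Hsp90b1, at 299, 373, 222 and 188 CPM, and Dnajc3, at 93.3, 97.2, 69.4 and 51.2 CPM, were higher under the FX11 label than under the IL-1β label, as Sdf2l1 was. Pdia4 was at 542.5, 396, 324 and 207 CPM, and Creb3l2 at 474, 278, 328 and 194 CPM, each lower than untreated under both labels. Hspa5 was at 967, 1086, 978 and 750 CPM, Xbp1 at 117, 125, 124 and 87.8 CPM, and Dnajb9 at 45.5, 41.0, 40.1 and 31.25 CPM. Whether these 2 libraries were exchanged was not tested.

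The comparison of both agents with untreated cells uses neither of these 2 libraries as an arm, and all 10 genes lay below 0 in it, from −0.36 to −1.23, where the median of all genes was 0.00. Creb3l2 went from 431 and 474 CPM to 196 and 194 CPM (log2 −1.20, SE 0.28, adjusted p = 0.873). Herpud1 went from 191 and 192 CPM to 94.1 and 88.1 CPM (−1.06, SE 0.38, adjusted p = 0.874), and Hspa5 from 1058 and 967 CPM to 554 and 750 CPM (−0.62, SE 0.26, adjusted p = 0.874). For all 10 genes the libraries with both agents lay below both untreated ones, as they did for 17.0% of all genes tested, and 0 of the 10 passed the test with the spread taken from all 8 libraries. With the 2 libraries left out the fold changes ranged from −1.23 to −0.36 and the adjusted p was 0.16 for Creb3l2 and Herpud1, 0.623 for Hspa5 and 0.418 to 0.853 for the other 7. With FX11 added to IL-1β all 10 fold changes were also below 0 (−0.80 to −0.40), where the median of all genes was −0.02. The share of all genes below 0 was not counted. Without these 2 libraries Serpinh1 gave 0.24 and the other 9 −0.85 to −0.06, so the direction of Serpinh1 turned.

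The next question was whether Cre virus shifts the genes in cells without IL-1β. In Nampt f/f 5 of the 10 genes were called lower and 0 higher, where 6.07% of genes were called lower and 8.3% higher. Ldha f/f had 2 called lower and 0 higher, against 2.09% and 3.43%, and in Nfkbiz f/f 0 were called, against 0.26% (910 genes there had an unadjusted p of 0.05 or less, 1 of the 10 among them, and DESeq2 called 71 genes and 0 of the 10). Serpinh1 was at 3195 and 3206 CPM after Cre in Ldha f/f, against 3822 and 3971 CPM after GFP (log2 −0.30, SE 0.07, adjusted p = 0.0293), and at 2919 and 2931 CPM in Nampt f/f, against 3849 and 3889 CPM (−0.41, SE 0.05, adjusted p = 0.000216). Nfkbiz f/f cells had it at 3956 and 4016 CPM after Cre and 4186 and 4227 CPM after GFP (−0.09, SE 0.11, adjusted p = 1.00). The chondrocyte marker sum was also lower after Cre in Ldha f/f (46100 and 46120 CPM against 63660 and 64080) and Nampt f/f (44370 and 44480 CPM against 62500 and 63990), and overlapped in Nfkbiz f/f. The fibroblast sum was lower too (4826 and 4993 CPM against 5369 and 5581 in Ldha f/f, 3821 and 3884 against 4502 and 4716 in Nampt f/f) and the endothelial sum higher (10.1 and 11.0 CPM against 3.27 and 3.49, and 13.9 and 14.0 against 3.55 and 4.25), and both overlapped in Nfkbiz f/f. The part of these markers in the falls was not tested.

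Creb3l2 was at 229 and 216 CPM after Cre in Ldha f/f (log2 −0.33, SE 0.08, adjusted p = 0.0378) and at 215 and 209 CPM in Nampt f/f (−0.38, SE 0.06, adjusted p = 0.0015). Herpud1 was at 123 and 125 CPM after Cre in Nampt f/f (−0.39, SE 0.06, adjusted p = 0.00162), and at 145 and 131 CPM in Ldha f/f (−0.27, SE 0.08, adjusted p = 0.0925, and 0.00272 with the block). Both libraries after Cre lay below both after GFP in each of these. Xbp1 in Nampt f/f was at 78.6 and 76.5 CPM after Cre (−0.26, SE 0.06, adjusted p = 0.0155), and in Ldha f/f at 80.8 and 75.8 CPM (−0.22, SE 0.07, adjusted p = 0.115, and 0.0231 with the block). Hspa5 in Nampt f/f was at 942 and 900 CPM after Cre (−0.23, SE 0.06, adjusted p = 0.0202).

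These calls without IL-1β were fragile where the fold was small. The call of Creb3l2 in Ldha f/f was lost in all 8 fits that left out 1 library (adjusted p up to 0.253) and that of Serpinh1 in 6 of the 8 (up to 0.204), all but those without either library of the Cre group with IL-1β. Those of Nampt f/f for Herpud1, Creb3l2 and Serpinh1 held in all 8, while those of Hspa5 (adjusted p up to 0.143) and Xbp1 (up to 0.102) were lost without either library of the GFP group or of the Cre group without IL-1β. With the block, Sdf2l1 (0.42, adjusted p = 0.000531, against 0.0819 without it) and Pdia4 (−0.11, adjusted p = 0.0419, against 0.422) were added in Nampt f/f. Sdf2l1 was higher after Cre in every floxed line without being called in any: 20.4 and 25.6 CPM in Ldha f/f, 22.4 and 25.4 CPM in Nampt f/f and 21.5 and 22.1 CPM in Nfkbiz f/f, each above both GFP libraries.

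With IL-1β, Sdf2l1, Dnajc3 and Pdia4 were called higher after Cre and Herpud1 and Serpinh1 lower, in Ldha f/f and in Nampt f/f. That is 3 higher and 2 lower in each, against 16.9% and 17.0% of genes in Ldha f/f and 25.0% and 23.4% in Nampt f/f. The 2 lower genes in both lines and the 3 higher genes in Nampt f/f lie near those shares, so these counts are no result about the 10 genes as a group. Among Nfkbiz f/f cells 0 were higher and 2, Xbp1 and Sdf2l1, were lower, against 8.16% and 9.2%. The direction of each of the 5 genes called in Ldha f/f and Nampt f/f was the same in set 1 and in set 2. These genes were called on the same libraries, 1 of each set per group, so this is no separate support.

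The largest fold change was that of Sdf2l1. Its level after Cre with IL-1β was 36.5 and 40.0 CPM in Ldha f/f, against 23.0 and 24.2 CPM after GFP with IL-1β (log2 0.72, SE 0.12, adjusted p = 0.00104). Nampt f/f cells had 31.6 and 41.2 CPM against 20.0 and 22.0 CPM (0.81, SE 0.14, adjusted p = 0.000818). Nfkbiz f/f cells had 21.2 and 19.4 CPM against 28.6 and 26.8 CPM (−0.46, SE 0.12, adjusted p = 0.0157). The groups did not overlap in any line, and the Nfkbiz f/f cells went the opposite way. The call in Nfkbiz f/f was lost without replicate 1 (adjusted p = 0.133) or 2 (0.0616) of the GFP group with IL-1β or replicate 2 of the Cre group with IL-1β (0.0593).

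Pdia4 was at 268 and 252 CPM after Cre in Ldha f/f, against 224 and 212 CPM after GFP (log2 0.28, SE 0.08, adjusted p = 0.0263), and at 270 and 244 CPM in Nampt f/f, against 204 and 196 CPM (0.38, SE 0.08, adjusted p = 0.00244). Dnajc3 was at 109 and 93.8 CPM in Ldha f/f, against 89.0 and 80.8 CPM (0.28, SE 0.10, adjusted p = 0.0487), and at 105 and 97.5 CPM in Nampt f/f, against 80.6 and 71.1 CPM (0.43, SE 0.09, adjusted p = 0.00191). The call of Dnajc3 in Ldha f/f was lost, and its fold change fell to 0.15 (adjusted p = 0.344), without replicate 1 of the Cre group with IL-1β, and it was also lost without replicate 1 (0.0903) or 2 (0.218) of the GFP group with IL-1β. Pdia4 in Ldha f/f was lost without any 1 of the 4 libraries with IL-1β (adjusted p of 0.0565 to 0.151). In Nampt f/f all 5 calls held without any 1 library.

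Herpud1 was lower after Cre with IL-1β, at 74.2 and 71.2 CPM in Ldha f/f (log2 −0.35, SE 0.08, adjusted p = 0.00855) and 60.5 and 59.3 CPM in Nampt f/f (−0.39, SE 0.06, adjusted p = 0.000402). Nfkbiz f/f cells had 98.9 and 98.8 CPM, above the 84.2 and 82.3 CPM after GFP (0.23, SE 0.09, adjusted p = 0.0988). Serpinh1 was at 1754 and 1724 CPM in Ldha f/f (−0.47, SE 0.07, adjusted p = 0.000501), 1644 and 1699 CPM in Nampt f/f (−0.45, SE 0.05, adjusted p = 1.74e-05) and 2036 and 1723 CPM in Nfkbiz f/f (−0.20, SE 0.11, adjusted p = 0.278). The chondrocyte marker sum moved with it, at 12950 to 14250 CPM after Cre with IL-1β in Ldha f/f and Nampt f/f, against 23670 to 24400 CPM after GFP, but at 31710 and 34060 CPM in Nfkbiz f/f, above the 26030 and 28220 CPM after GFP. The fibroblast marker sum with IL-1β went from 4065 and 4272 CPM after GFP to 2629 and 2660 CPM after Cre in Ldha f/f, from 3516 and 3588 to 2235 and 2267 CPM in Nampt f/f, and from 711 and 750 to 750 and 859 CPM in Nfkbiz f/f. The sum of the 4 endothelial markers went the other way, from 4.73 and 5.26 to 16.8 and 21.04 CPM, from 6.84 and 7.36 to 22.9 and 26.2 CPM, and from 3.26 and 4.30 to 6.69 and 7.73 CPM in the same order. The part of these markers in the values after Cre was not tested.

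Of the other 5 genes only Xbp1 was called after Cre with IL-1β in the fit without the block, and in Nfkbiz f/f alone. Xbp1 in Nfkbiz f/f was at 52.8 and 50.3 CPM, against 70.2 and 68.5 CPM after GFP (log2 −0.44, SE 0.11, adjusted p = 0.0119), a call lost without replicate 1 (0.0959) or 2 (0.0705) of the GFP group with IL-1β. In Ldha f/f and Nampt f/f Xbp1 gave −0.11 and −0.08, uncalled. Creb3l2 gave −0.15 in Ldha f/f (adjusted p = 0.173, and 0.035 with the block) and −0.10 in Nampt f/f, and in Nfkbiz f/f it was at 197 and 171 CPM against 154 and 148 CPM (0.27, SE 0.11, adjusted p = 0.11). Hsp90b1 gave 0.16 in Ldha f/f (adjusted p = 0.182, and 0.0251 with the block) and 0.13 in Nampt f/f (0.191, and 0.0045 with the block). Hspa5 gave −0.02 in both of these lines, with standard errors of 0.08 and 0.06, and in Nfkbiz f/f it was at 674 and 682 CPM against 781 and 778 CPM (−0.22, SE 0.10, adjusted p = 0.157). Dnajb9 was not called in any line. Its 2 libraries after Cre with IL-1β in Nfkbiz f/f stood apart, at 37.3 and 24.4 CPM, against 36.9 and 35.7 CPM after GFP (−0.25, SE 0.16, adjusted p = 0.323). Without replicate 1 of that group Dnajb9 was called (−0.59, adjusted p = 0.00276), with Serpinh1 (−0.32, 0.0349), and without replicate 2 Creb3l2 was called (0.37, 0.0333).

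**Figure D3:**
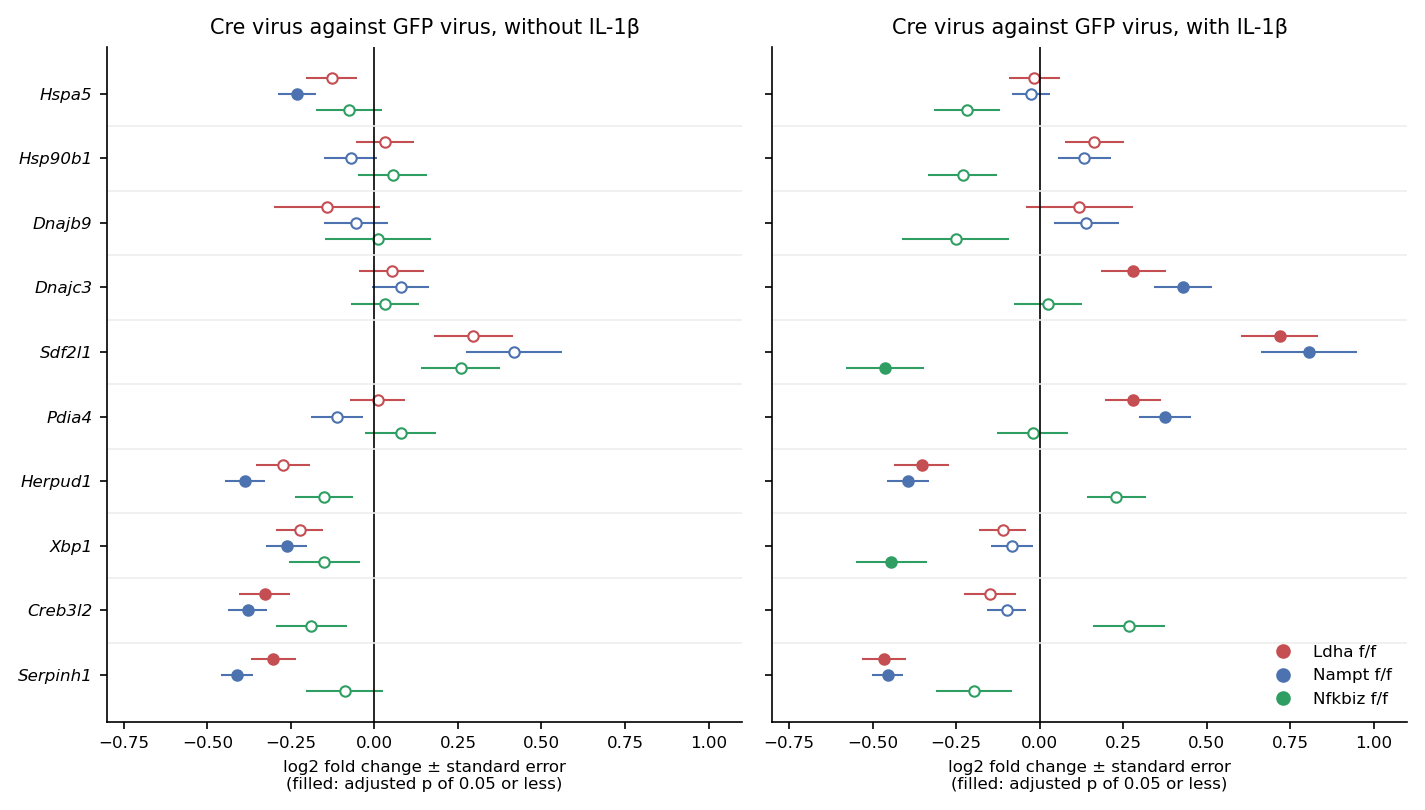
Log2 fold change after Cre virus against GFP virus (horizontal axes) of the 10 genes (vertical axis) in the 3 floxed lines, without IL-1β on the left and with it on the right, with bars for 1 standard error and filled points for an adjusted p of 0.05 or less. With IL-1β, Sdf2l1 lies at 0.72 and 0.81 in Ldha f/f and Nampt f/f and at −0.46 in Nfkbiz f/f, while Herpud1 lies below 0 in the first pair of lines and above it in the third.

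Whether the response to IL-1β itself differed after Cre was tested with the interaction term. In Ldha f/f it called 0 of the 10 genes, where 11.5% of genes were called (2 of the 10 had an unadjusted p of 0.05 or less, and DESeq2 called 0 of them). With the block Sdf2l1 (log2 difference 0.43, adjusted p = 0.0233, against 0.144 without it) and Pdia4 (0.27, adjusted p = 0.0194, against 0.187) were called there. In Nampt f/f 2 genes were called higher and 0 lower, against 12.0% and 9.98%. Pdia4 fell by 0.56 on the log2 scale with IL-1β after GFP, and the fall after Cre was smaller by 0.49 (SE 0.11, adjusted p = 0.01). Creb3l2 fell less after Cre by 0.28 (SE 0.08, adjusted p = 0.0351), a call lost in all 8 fits that left out 1 library (adjusted p up to 0.154), while that of Pdia4 was lost only without replicate 1 of the Cre group with IL-1β (0.0644). With the block 4 more genes were called in Nampt f/f, all less lowered or more raised by IL-1β after Cre: Hspa5 (0.21, adjusted p = 0.000498), Hsp90b1 (0.21, 0.00379), Dnajc3 (0.35, 0.000299) and Sdf2l1 (0.38, 0.0209), where the fit without it gave 0.0938, 0.23, 0.0642 and 0.204. In Nfkbiz f/f 0 were higher and 1 lower, against 1.69% and 3.5%. There Sdf2l1 rose with IL-1β after GFP but was at 21.5 and 22.1 CPM without and 21.2 and 19.4 CPM with IL-1β after Cre, a difference of −0.72 (SE 0.17, adjusted p = 0.0242). This call was kept in 2 of the 8 fits that left out 1 library, with the difference between −0.80 and −0.62 and the adjusted p up to 0.144 without either library of the GFP group, either of the GFP group with IL-1β or either of the Cre group without IL-1β.

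The Cre effects of the lines, each averaged over both IL-1β states, were compared in 1 fit of 24 libraries. Nfkbiz f/f differed from both other lines in the same 4 genes, while Ldha f/f and Nampt f/f did not differ beyond their error in any of the 10. Against Ldha f/f, the Cre effect in Nfkbiz f/f was higher for 3 genes, Herpud1 by 0.37 (SE 0.07, adjusted p = 0.000199), Creb3l2 by 0.29 (SE 0.07, adjusted p = 0.00464) and Serpinh1 by 0.25 (SE 0.07, adjusted p = 0.0084). It was lower for 1, Sdf2l1 by −0.59 (SE 0.10, adjusted p = 8.06e-05), where 11.7% of genes were higher and 10.1% lower. Against Nampt f/f it was higher for the same 3, Herpud1 by 0.45 (SE 0.07, adjusted p = 1.03e-05), Creb3l2 by 0.30 (SE 0.07, adjusted p = 0.00245) and Serpinh1 by 0.31 (SE 0.07, adjusted p = 0.000975). It was lower for 2, Sdf2l1 by −0.69 (SE 0.10, adjusted p = 8.17e-06) and Dnajc3 by −0.21 (SE 0.07, adjusted p = 0.0331), against 16.2% and 15.1% of genes. The call of Dnajc3 was lost in 9 of 24 fits that left out 1 library, 6 of them without a library of Nampt f/f and 3 without one of Nfkbiz f/f (adjusted p up to 0.108), and those of the other 4 genes held in all 24. These 2 comparisons share the 8 libraries of Nfkbiz f/f. When Ldha f/f was set against Nampt f/f, 0 of the 10 were called, where 0.705% of genes were (2128 genes had an unadjusted p of 0.05 or less, 0 of the 10 among them, and DESeq2 called 302 genes and 0 of the 10), with differences of −0.10 to 0.09 and standard errors of 0.07 to 0.13. Nfkbiz f/f libraries all belong to set 2 and have the lowest fibroblast markers, so line, set and this marker level cannot be fully told apart in their Cre effect.

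The same lists were counted after Cre with IL-1β. Of all genes tested, 16.9% were called higher and 17.0% lower in Ldha f/f, and 25.0% and 23.4% in Nampt f/f. In Nfkbiz f/f these shares were 8.16% and 9.2%. A count near these shares is no result about a list. Of 20 other ER folding genes 4 were higher and 3 lower in Ldha f/f, 7 and 2 in Nampt f/f and 0 and 1 in Nfkbiz f/f, with medians of 0.01, 0.13 and −0.10. Creld2, a secreted ER stress protein, gave 0.60 and 0.72 in Ldha f/f and Nampt f/f, and the lectin chaperone calreticulin (Calr) 0.44 and 0.71. The oxidase gene Ero1l, which drives disulphide formation and is known to answer hypoxia signals, was lower in all 3 lines (−0.74, −0.76 and −1.0). In ER-associated degradation 1, 2 and 1 of 17 were higher and 2, 2 and 0 lower, with the ATPase gene Vcp at 0.33 and 0.47 in the first pair of lines. Of 8 sensors and membrane-bound factors 2, 3 and 0 were higher and 4, 3 and 0 lower, with Creb3 at 0.58 and 0.91 and Ern1, which encodes IRE1α, at −0.65 and −0.75 in Ldha f/f and Nampt f/f. In the PERK, ATF4 and CHOP list 0, 1 and 2 of 11 were higher and 5, 5 and 1 lower, with Trib3, a CHOP target, at −1.32 and −1.35 and Atf4 at −0.86 and −0.83 in these lines.

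Cartilage matrix genes had 9 of 11 lower in Ldha f/f and Nampt f/f (medians −0.85 and −0.82), with Hapln1, the link protein of aggrecan, at −3.10 and −3.28, but 1 lower and 1 higher in Nfkbiz f/f (median −0.02). Collagen modification had 6, 4 and 4 of 12 lower and 0, 2 and 2 higher, with Plod2 at −0.81 and −0.98 in Ldha f/f and Nampt f/f and P4ha2 at −0.71, −0.61 and −1.06 in the 3 lines. Translocon genes had 3, 4 and 2 of 13 lower and 0, 1 and 0 higher, and ER-to-Golgi transport 4, 3 and 1 of 17 lower and 2, 4 and 0 higher. Cytosolic and mitochondrial heat shock genes had 8, 9 and 9 of 12 lower and 2, 2 and 0 higher, with medians of −0.49, −0.69 and −0.69. Without IL-1β, Cre gave 0, 2 and 0 of 20 ER folding genes lower and 0 higher, 0, 4 and 0 of 17 degradation genes lower and 0 higher, and 0 of 8 sensors and membrane-bound factors lower and 0, 1 and 0 higher. The PERK arm had 2, 5 and 0 of 11 lower and 0 higher there, cartilage matrix 9, 11 and 0 of 11 lower and 0 higher, and collagen modification 1, 5 and 0 of 12 lower and 0, 1 and 0 higher. Translocon genes had 0, 4 and 0 of 13 lower, ER-to-Golgi transport 0, 4 and 0 of 17 lower, and heat shock genes 2, 6 and 2 of 12 lower and 0, 1 and 0 higher. Of all genes tested without IL-1β, 2.09% were called lower and 3.43% higher in Ldha f/f, and 6.07% and 8.3% in Nampt f/f. In Nfkbiz f/f 0.26% were called in either direction. The lists' difference between the 2 IL-1β states was not tested.

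**Figure D4:**
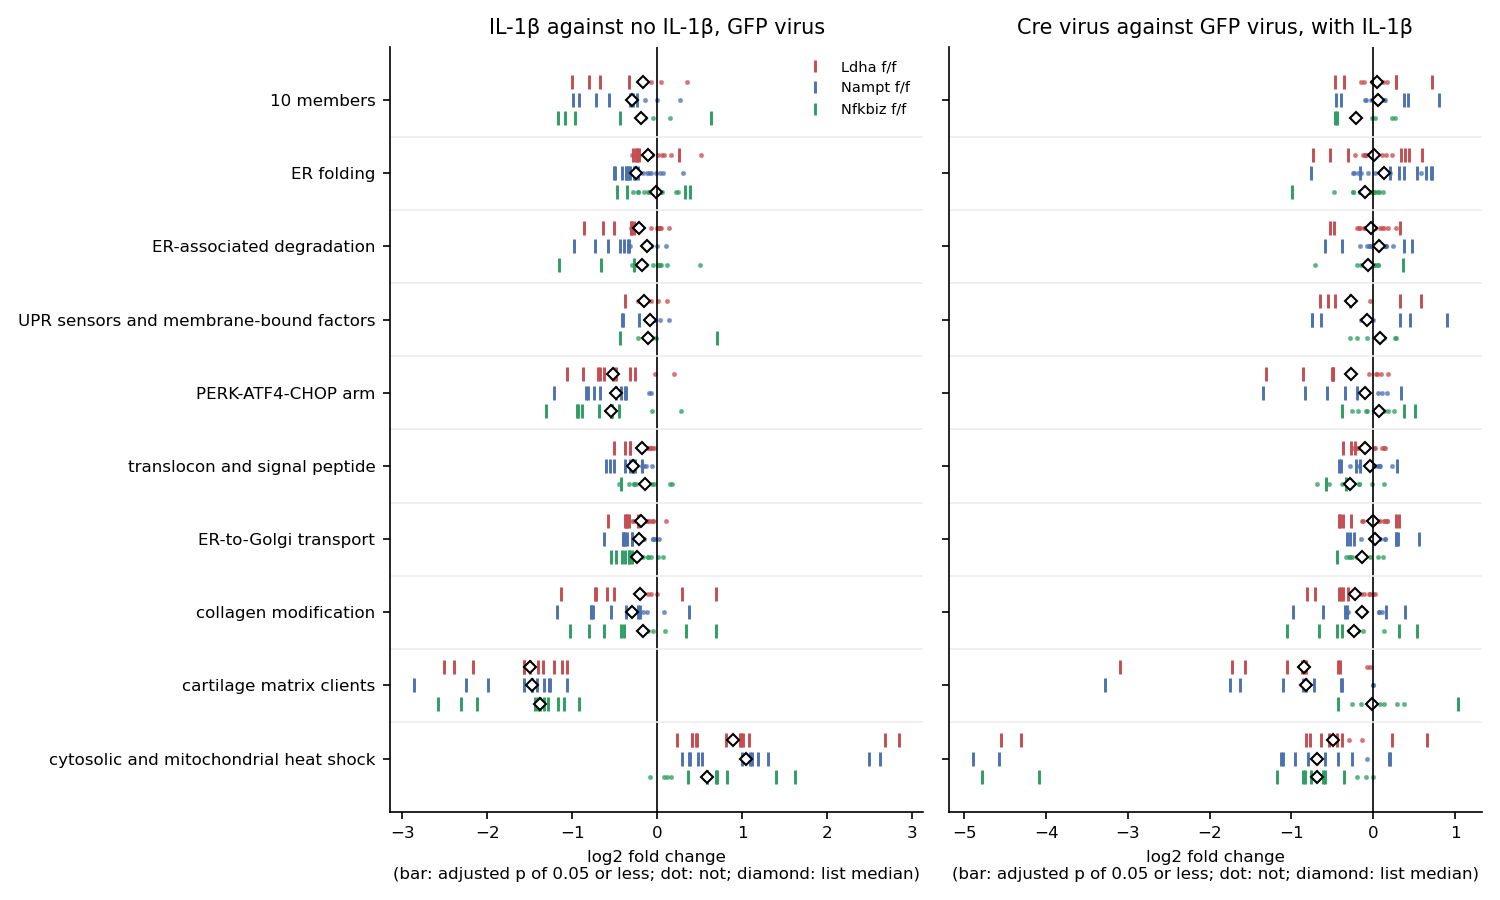
Log2 fold change (horizontal axes, each with its own scale) of the 10 genes and of the genes in 9 related lists (vertical axis) in the 3 floxed lines, with IL-1β against without after GFP virus on the left and Cre against GFP virus with IL-1β on the right, where bars are genes at an adjusted p of 0.05 or less, dots are other genes and diamonds are list medians. Cartilage matrix genes lie to the left of 0 and heat shock genes outside the ER to its right with IL-1β, while the ER folding genes stay near 0 (medians −0.25 to −0.02).

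The heat shock genes Hspa1a and Hspa1b, near-identical copies whose reads cannot be split with certainty, separated Cre from GFP libraries in all 3 lines. Hspa1a was at 32.6 to 131 CPM after GFP without IL-1β and at 3.25 to 4.98 CPM after Cre, and with IL-1β at 101 to 707 CPM after GFP and 3.73 to 29.2 CPM after Cre, while the wild-type libraries without virus had 0.833 to 3.34 CPM. Their log2 fold change after Cre without IL-1β was −3.91 and −3.06 in Ldha f/f, −4.63 and −3.97 in Nampt f/f and −3.54 and −2.81 in Nfkbiz f/f, for Hspa1a and Hspa1b in that order. This difference between the 2 viruses stands beside every Cre result above, in Nfkbiz f/f as well as in the other lines, and its part in the changes of the 10 ER genes was not tested.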

How the data were processed

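The authors depleted ribosomal RNA, aligned reads to GRCm38 (Ensembl 76) with STAR and counted uniquely aligned reads per gene with featureCounts (STAR 2.0.4b and featureCounts 1.45 in the submitters' processing notes). Each deposited file holds the count, the CPM and the RPKM of 41388 genes in 1 library. Only the deposited counts were used. The deposited CPM and RPKM values entered no test. Groups came from the labels. The members and the lists were chosen with earlier results of these data known.

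After 355 ribosomal RNA genes were removed, those above 1 CPM in at least 1 library (7 for the 16 control libraries) entered the test in R 4.3.3 with edgeR 4.0.16 (TMM, two-sided quasi-likelihood test, Benjamini-Hochberg over all genes tested). The code was tested on simulated data. Each line was fitted on its 8 libraries. Library totals ran from 15830658 to 39959888 counts. The 2 libraries a group limit the precision for the 10 genes, and counting error also limits Mmp3 without IL-1β and Hspa1a in wild type, which had few counts.

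Alternatives were RLE factors, no filter, DESeq2 1.42.0, limma 3.58.1 voom with quality weights (the study's test), a replicate block, all 32 libraries in 1 fit, no wild type and each library left out. Added after seeing the data were 1 fit of the 24 floxed libraries and both wild-type libraries that run against their labels left out. Replicate numbers stand for the library set except in Nfkbiz f/f. Over 6 pairs of groups, deviations of same-numbered libraries correlated at 0.17 to 0.306 in Ldha f/f and 0.153 to 0.223 in Nampt f/f, so these numbers pair the libraries.

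Besides the 10 genes, the text names the deleted genes, Mmp3, and from each list up to 2 called genes with the largest positive and up to 2 with the largest negative log2 fold change per comparison. Symbols came from GENCODE M21 (40340 of 41388 identifiers) and promoters from RefSeq, where all 10 genes matched. Python 3.11.15, pandas 2.3.3 and matplotlib 3.10.9 made the tables and figures.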

Additional observations from a re-analysis of the deposited data

Results flagged for a closer look

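In the 8 untreated and the 8 IL-1β control libraries, the highest and lowest library of each of the 10 genes was compared with the others by Dixon's criterion, 20 groups in all. Each group pools wild type without virus and floxed lines with GFP virus. The criterion's chance rate of about 1 in 20 therefore does not apply. Dixon's criterion marked 8, all at the high end and all wild-type libraries, which carry no virus. Several marks fall on the same library, so they are not independent. Without IL-1β the untreated library of set 2 stood apart in Sdf2l1 (28.3 CPM), Pdia4 (542.5 CPM) and Serpinh1 (5306 CPM). With IL-1β, the set 2 library labelled IL-1β, whose Mmp3 runs against that label, stood apart in Herpud1 (199.3 CPM), Pdia4 (324.0 CPM), Creb3l2 (327.9 CPM) and Serpinh1 (5010 CPM), and the set 1 library stood apart in Hsp90b1 (386.1 CPM).

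Tests of a difference between groups marked 12 values, all on the log2 scale from edgeR's quasi-likelihood test. The response to IL-1β was called different after Cre in Nampt f/f for Pdia4 (0.487) and Creb3l2 (0.281) and in Nfkbiz f/f for Sdf2l1 (−0.722). As given above, most or all fits that left out 1 library lost the calls of Creb3l2 and Sdf2l1. The Cre effect in Nfkbiz f/f minus that in Ldha f/f was −0.590 for Sdf2l1, 0.367 for Herpud1, 0.292 for Creb3l2 and 0.254 for Serpinh1. Minus that in Nampt f/f it was −0.686 for Sdf2l1, −0.205 for Dnajc3, 0.453 for Herpud1, 0.300 for Creb3l2 and 0.314 for Serpinh1. The call of Dnajc3 was lost without single libraries of Nampt f/f or Nfkbiz f/f, with an adjusted p of up to 0.108.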

How the results depend on the processing

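Over 20 comparisons of the 10 genes (200 results, 53 called) no alternative turned the direction of a called result. The number of the 10 genes called moved by over 1.5 times as follows. With the replicate block it went from 2 to 4 in Ldha f/f after Cre without IL-1β, and for the interaction from 0 to 2 in Ldha f/f and from 2 to 6 in Nampt f/f. In wild type, where the numbers stand for the set, the correlations ran from −0.0729 to 0.659. They take in the 2 libraries that run against their labels, so they do not settle whether the numbers pair libraries there. In Nfkbiz f/f the numbers do not pair libraries (correlations of −0.0629 to 0.0447), and the block left 5, 0, 2 and 1 called (IL-1β, Cre without IL-1β, Cre with IL-1β, interaction). It took the call of Sdf2l1 over the 16 controls (adjusted p = 0.0701) and gave one to Dnajb9 (0.0269). With all 32 libraries in 1 fit, which takes in the spread of wild type, it went with IL-1β from 4 to 2 (Ldha f/f), 7 to 3 (Nampt f/f) and 5 to 3 (Nfkbiz f/f), after Cre without IL-1β from 2 and 5 to 0 in Ldha f/f and Nampt f/f, after Cre with IL-1β from 5 and 5 to 0 in these and from 2 to 1 in Nfkbiz f/f, and for the interaction from 2 and 1 to 0 in Nampt f/f and Nfkbiz f/f. In wild type that fit called 1 gene with IL-1β and 8 with both agents, where the fit of 8 libraries called 0, and DESeq2 called 1 with both agents. In 1 fit of the 24 floxed libraries it went from 2 to 4 (Ldha f/f, Cre without IL-1β), from 2 to 6 (Nfkbiz f/f, Cre with IL-1β) and from 1 to 3 (Nfkbiz f/f, interaction). The cause was not tested, beyond the libraries that each fit adds.

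Leaving out 1 library gave 3 to 5, 6 to 7 and 4 to 5 genes with IL-1β in the order Ldha f/f, Nampt f/f, Nfkbiz f/f, 0 to 1, 3 to 6 and 0 to 0 after Cre without IL-1β, 3 to 5, 5 to 5 and 0 to 4 after Cre with IL-1β, and 0 to 1, 0 to 1 and 0 to 2 for the interaction. It gave 5 to 8 over the 16 controls, 0 in wild type, 4 to 5 and 4 to 6 for Nfkbiz f/f minus Ldha f/f and minus Nampt f/f, and 0 for Ldha f/f minus Nampt f/f. RLE factors kept 199 of 200 results on their side of the threshold, DESeq2 199, no filter 195 and voom with quality weights 195.

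Over all genes, the block moved the number called from 877 to 1994 and 2319 to 4311 (Cre without IL-1β) and from 1825 to 3374 and 3552 to 5648 (interaction) in Ldha f/f and Nampt f/f. No filter gave 170 for 40 (Nfkbiz f/f, Cre without IL-1β), 1325 for 797 (its interaction), 8 for 0 (both agents in wild type) and 438 for 118 (Ldha f/f minus Nampt f/f). DESeq2 gave 71 for the 40 and 302 for the 118, and voom 811 for the 118 and 8269 for 5508 over the 16 controls. All 32 libraries in 1 fit gave 1414, 89, 2822 and 312 for 4424, 877, 5392 and 1825 in Ldha f/f, 2191, 300, 4934 and 748 for 5642, 2319, 7808 and 3552 in Nampt f/f, 1982, 23, 851 and 40 for 4120, 40, 2666 and 797 in Nfkbiz f/f (order as above), and 52, 2, 16 and 1561 for 0 in wild type. The 24 floxed libraries in 1 fit gave 1463 for 877 in Ldha f/f and 256, 4366 and 1861 for 40, 2666 and 797 in Nfkbiz f/f.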
